A study of Mus musculus with 20 samples.

Results

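The 9 genes of the oligodendrocyte lineage described here were followed through the peak lists of sorted brain nuclei that are labelled as neurons. The members were taken by name, 9 of 21631 protein-coding genes that RefSeq places on GRCm38.p6 (the mm10 assembly), and all 9 were found. They are the transcription factors Olig1, Olig2 and Sox10, the growth factor receptor Pdgfra, and the myelin genes Mbp, Mog, Mag, Mobp and Cnp. The study profiled chromatin by CUT&RUN, in which an antibody directs a nuclease to cut out the DNA around its target. Nuclei came from whole brain of 8 week old mice and were sorted by flow cytometry, and each of 5 antibodies was used on 2 libraries labelled excitatory neuron and 2 labelled inhibitory neuron, 20 libraries in all. All 20 carry the genotype label Sun1 f/f | Emx1Cre (+), the inhibitory ones included. Emx1-Cre acts in dorsal forebrain progenitors, whose descendants include cortical excitatory neurons and also astrocytes and oligodendrocytes. The gate that separated the nuclei, and whether libraries came from separate animals, are not stated in the labels, so a p-value here reflects the spread between libraries alone, and that spread may be technical.

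Oligodendrocytes wrap axons in myelin. Their precursors carry the PDGF receptor encoded by Pdgfra. Olig1, Olig2 and Sox10 set up the lineage, and Sox10 switches on myelin genes as the cells mature. In neurons most of these genes are usually silent. Genes of other lineages that encode transcription factors are commonly held under H3K27me3, the mark laid down by Polycomb complexes. H3K4me3 marks promoters, H3K4me1 marks enhancers and the flanks of promoters, H3K27ac marks those that are active, and EGR1 is a zinc finger transcription factor induced by neuronal activity.

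The measure is the percent of a gene's window that is covered by a library's peaks. For H3K4me1, H3K27ac and H3K27me3 the window is the gene body plus 5 kb on each side, and for H3K4me3 and EGR1 it is the 2 kb to either side of each gene end. Levels are given as deposited. Differences are the normalized coverage of the libraries labelled excitatory minus that of the libraries labelled inhibitory, in percentage points with the standard error, from limma with Benjamini-Hochberg adjustment over all genes tested and a threshold of 0.05. An exact permutation test of 2 against 2 libraries cannot go below a two-sided p of 0.333. Library depth is unknown, since the files list peaks without read counts. The lists ran from 139982 to 321846 peaks for H3K4me1, 79135 to 163053 for H3K4me3, 109536 to 268626 for H3K27ac, 231996 to 313235 for H3K27me3 and 49899 to 98534 for EGR1. None of the members' H3K27me3 peaks and 0% to 13.2% of their H3K4me1 peaks had a q-value under 0.05, against 94.7% to 100% of their EGR1 peaks. For H3K4me3 the share was 22.2% to 61.5%. For H3K27ac it was 2.78% and 8.47% in the libraries labelled excitatory and 42.3% and 42.9% in those labelled inhibitory. Of all H3K4me1 peaks, 0.0087% and 0.219% had such a q-value under the excitatory label and 1.43% and 9.61% under the inhibitory. The longer H3K4me1 lists thus held the smaller shares of such peaks.

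The labels were checked first on neuronal genes, and they were followed by some genes and antibodies and not by others. In the EGR1 lists Slc17a7, which loads glutamate into vesicles in cortical excitatory neurons, was covered over 18.2% and 16.3% of its gene-end window in the libraries labelled excitatory and 6.76% and 8.11% in those labelled inhibitory. Gad1, a GABA-synthesizing enzyme, had 0% and 0% against 3.29% and 7.31%, and Gad2, the other such enzyme, 2.80% and 0% against 5.66% and 8.31%. These EGR1 values follow the labels. At the gene ends, 6 of the 7 excitatory neuron markers had more EGR1 under the excitatory label. All 6 inhibitory neuron markers tested had more under the inhibitory label. For H3K27ac, Slc17a7 had 7.89% and 7.26% in the libraries labelled excitatory and 13.95% and 14.4% in those labelled inhibitory, Gad1 5.62% and 3.26% against 0.576% and 0%, and Gad2 3.61% and 7.02% against 0.617% and 0.961%. These 3 genes go against the labels, while 5 of the 7 excitatory neuron markers had the higher H3K27ac in the libraries labelled excitatory, with a median difference of 2.90 points. Of the 11 inhibitory neuron markers, 9 were tested. All 9 also had the higher H3K27ac in the libraries labelled excitatory, against the labels, with a median difference of 4.30 points. H3K4me1 on Gad1, at 21.2% and 25.4% against 4.42% and 7.40%, also went against the labels, with a difference of 14.9 ± 2.79 points (adjusted p = 0.0496). Of the H3K4me1 values of whole lists, 6 of 7 excitatory neuron markers were higher in the libraries labelled excitatory, as were 6 of 11 inhibitory neuron markers. For H3K4me3, Slc17a7 had 9.89% and 30.7% against 33.3% and 36.9%, against the labels. Gad2 had 3.64% and 10.9% against 14.4% and 17.5%, which follows them. Of the 6 excitatory neuron markers tested for H3K4me3, 2 were higher under the excitatory label and 4 under the inhibitory, where 1 passed. Of the 9 inhibitory neuron markers tested, 6 were higher under the inhibitory label and 3 under the excitatory. Across the genome, 34.9% of the EGR1 regions found only under the excitatory label lay on H3K4me1 regions found only under that label. The share on H3K4me1 regions found only under the other label was 0.485%. For H3K27ac the shares were 15.4% and 1.88%. Regions found only under the excitatory label were also more numerous, 61575 against 13391 for H3K4me1 and 24459 against 15040 for H3K27ac. The shares were not corrected for this. EGR1 regions found only under the inhibitory label were not examined in this way. The overlap compares labels between antibodies and cannot show whether a label names the right nuclei. The pan-neuronal genes Rbfox3 and Snap25 carried H3K4me1 in every library, Rbfox3 at 19.5%, 31.1%, 23.0% and 28.6% and Snap25 at 21.3%, 35.4%, 26.6% and 28.0%, with the groups overlapping. The groups are called by their labels below, and a direction says only which labelled libraries held more coverage.

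**Figure D1:**
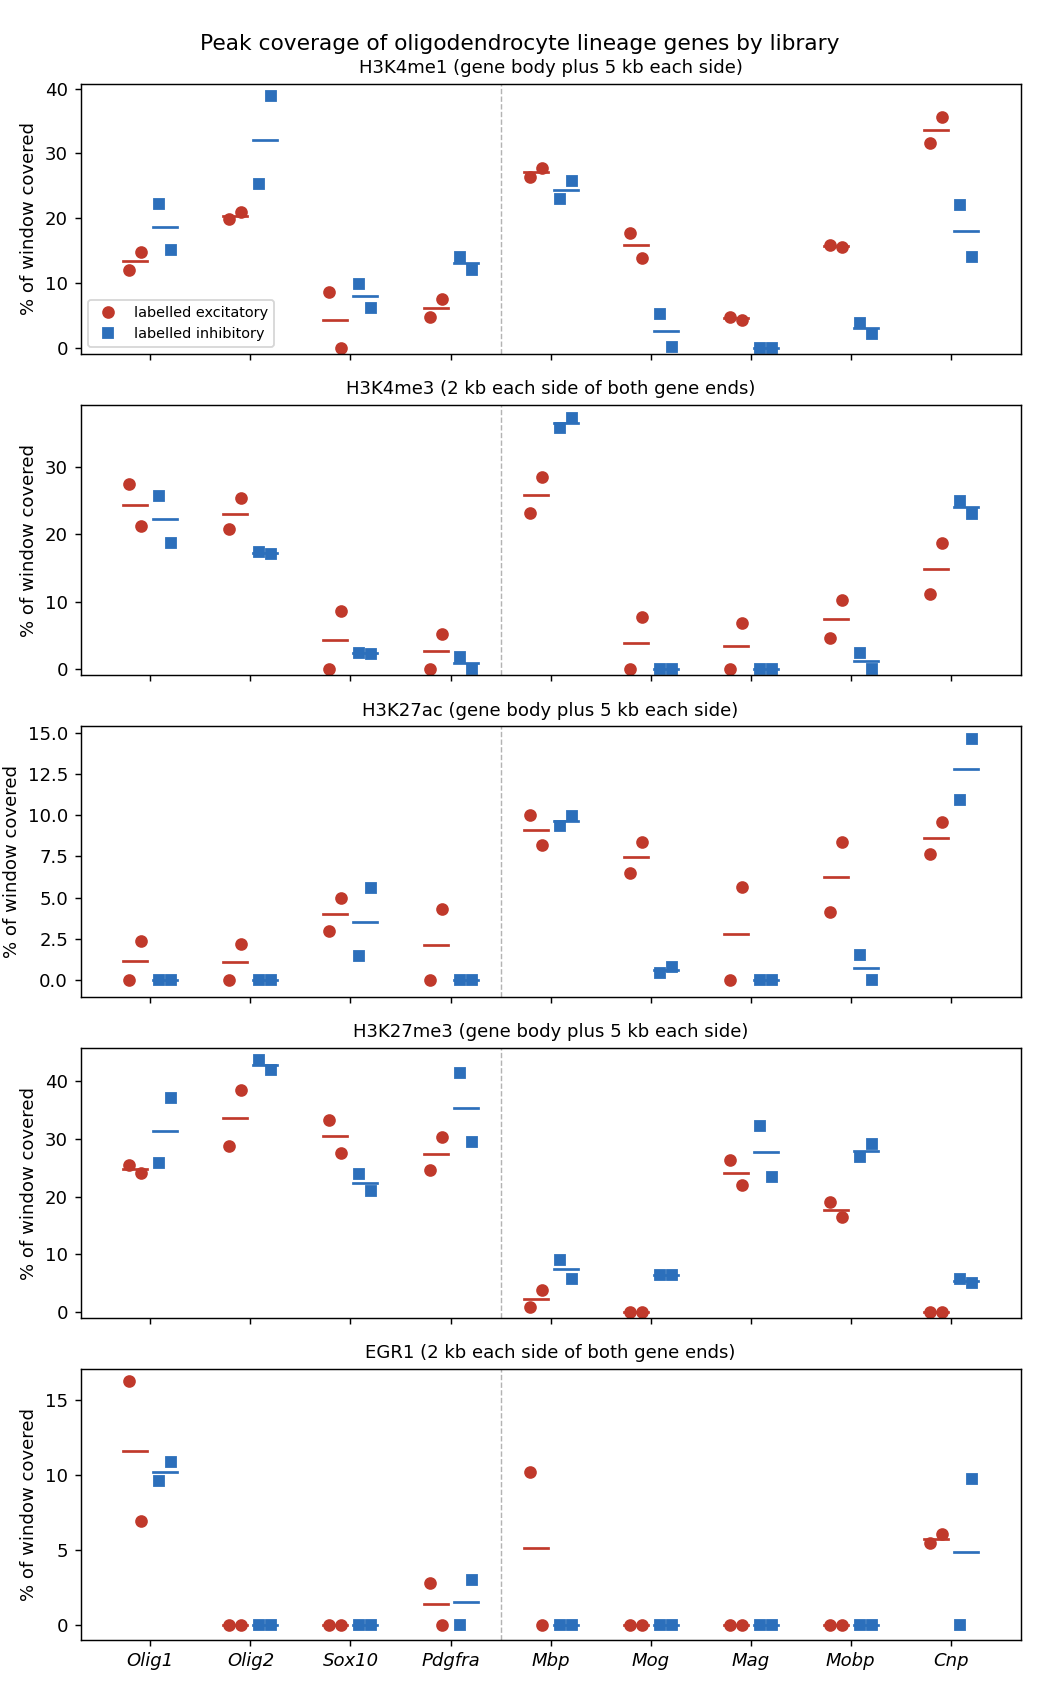
Percent of each member's window covered by peaks (vertical axes) for the 9 members (horizontal axis) and 5 antibodies (panels), 1 point a library, with a bar at the mean of the 2 libraries of a label. H3K4me1 on Mobp sits at 15.9% and 15.5% in the libraries labelled excitatory (red circles) and 3.80% and 2.11% in those labelled inhibitory (blue squares), while H3K27me3 on Olig2 lies between 28.8% and 43.5% in all 4.

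Olig2, a basic helix-loop-helix factor required to specify oligodendrocytes, was the only member whose H3K27me3 regions were all shared by all 4 libraries. The gene lies on chromosome 16 from 91225550 to 91228677. Its window held 4 H3K27me3 regions, and each of the 4 was present in all 4 libraries. Coverage was 28.8% and 38.3% in the libraries labelled excitatory and 43.5% and 41.9% in those labelled inhibitory, above 96.7% to 99.6% of all genes in its library. The groups do not overlap, but the difference of -6.27 ± 5.21 points did not pass (adjusted p = 0.486). A region, from 91224807 to 91226746, spans the gene's start, and an H3K4me3 region found in all 4 libraries, from 91224804 to 91226321, lies over it. The bases before the start are shown because both marks meet there. They come from RefSeq (GRCm38.p6, plus strand, chr16:91225300-91225549), with CG pairs in capitals:
Olig2: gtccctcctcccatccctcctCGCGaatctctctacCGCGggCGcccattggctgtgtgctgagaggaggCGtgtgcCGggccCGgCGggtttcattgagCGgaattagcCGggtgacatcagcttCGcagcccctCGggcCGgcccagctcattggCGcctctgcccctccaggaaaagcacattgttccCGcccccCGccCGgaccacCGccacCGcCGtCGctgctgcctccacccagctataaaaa
This stretch holds 22 CG pairs, more than 85.2% of the 32851 promoters in the table, which have a median of 6. H3K4me3 peaks covered all 250 of its bases in 3 libraries and none in the first library labelled excitatory, and H3K27me3 peaks reached it in both libraries labelled inhibitory, over 158 and 250 bases.

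Olig1, the neighbouring family member on chromosome 16 from 91269769 to 91271939, acts later, in oligodendrocyte maturation. Its H3K27me3 coverage was 25.5% and 24.1% in the libraries labelled excitatory and 25.8% and 36.9% in those labelled inhibitory, and its H3K4me3 coverage was 27.5% and 21.2% against 25.7% and 18.7%. The H3K4me3 groups overlap. At the lower end of the gene a single region was shared by all 4 libraries for each of 4 antibodies, namely H3K4me1, H3K4me3 (91269289 to 91271100), H3K27me3 (91269376 to 91270651) and EGR1 (91269468 to 91270469). EGR1 covered 16.2% and 6.89% of the gene-end window in the libraries labelled excitatory and 9.56% and 10.9% in those labelled inhibitory, which overlap. H3K27ac was at 0% in 3 of the 4 libraries for both Olig1 and Olig2, the exception being the second library labelled excitatory, with 2.39% on Olig1 and 2.22% on Olig2. The 2 marks were then required on the same bases near a gene end, in both libraries of a label. Olig1 and Olig2 carried H3K4me3 together with H3K27me3 in this way in both labels. The state was found at 10.5% of all genes in the libraries labelled excitatory and 11.9% in those labelled inhibitory. Mbp and Cnp carried it in the libraries labelled inhibitory, and the other 5 members in neither. Of the Olig2 H3K4me3 peaks, 0 and 0 had a q-value under 0.05 in the libraries labelled excitatory, against 1 and 2 in those labelled inhibitory.

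Sox10 and Pdgfra had H3K27me3 with little H3K4me3 at their gene ends, though Pdgfra held an H3K4me3 region inside the gene. Sox10, on chromosome 15 from 79154913 to 79164490, had H3K27me3 over 33.2% and 27.6% of its window in the libraries labelled excitatory and 23.9% and 20.9% in those labelled inhibitory. It was the 1 member of 9 with the higher value in the libraries labelled excitatory, and the groups do not overlap. The difference of 11.6 ± 3.76 points did not pass (adjusted p = 0.138). The neighbouring gene Polr2f reaches into this window, and with its bases left out the values were 41.4% and 34.4% against 29.7% and 26.1%. Pdgfra, on chromosome 5 from 75151322 to 75198206, had 24.6% and 30.2% against 41.3% and 29.4%, which overlap, and 9 of its 15 H3K27me3 regions were shared by all 4 libraries. H3K4me3 at the gene ends was 0% and 8.57% against 2.30% and 2.25% on Sox10, and 0% and 5.16% against 1.68% and 0% on Pdgfra, with overlap in both. Inside Pdgfra, an EGR1 region from 75155971 to 75156807 was present in all 4 libraries and lay on H3K4me1, H3K4me3 and H3K27me3 regions that were also in all 4.

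Among the myelin genes, H3K27me3 divided the members. Mag, an adhesion protein of the inner myelin layer, on chromosome 7 from 30899175 to 30914922, had 26.2% and 22.0% in the libraries labelled excitatory and 32.2% and 23.3% in those labelled inhibitory. Mobp, a structural protein of central myelin, on chromosome 9 from 120149742 to 120181488, had 18.99% and 16.4% against 26.8% and 29.1%. These values overlap for Mag and do not for Mobp, and both genes lay above 78.4% of all genes or more in every library. Mog, a glycoprotein of the outer myelin surface, on chromosome 17 from 37010740 to 37023398, had 0% and 0% against 6.51% and 6.39%. Cnp, a nucleotide phosphodiesterase of myelin, on chromosome 11 from 100574909 to 100591875, had 0% and 0% against 5.85% and 5.02%. Mbp, the protein that compacts the myelin sheath, on chromosome 18 from 82475091 to 82585637, had 0.872% and 3.93% against 9.08% and 5.79%. Mog, Cnp and Mbp thus held little of the mark, with more in both libraries labelled inhibitory. The median of all genes was 1.53% and 1.60% in the libraries labelled excitatory and 4.95% and 2.84% in those labelled inhibitory, so a value in the same direction is common.

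No member passed the test for H3K27me3, where 0.0% of the 15438 genes tested were called and 28.9% had an unadjusted p under 0.05 (4455 genes), as 3 of the 9 members did. Coverage was higher in both libraries labelled inhibitory for 6 of 9 members, against 48.7% of all genes, and higher in both labelled excitatory for 1, against 14.2%. The median difference was -3.73 points over the members and 0.05 over all genes. Cnp (-3.73 ± 0.72 points, adjusted p = 0.0632) and Mog (-4.61 ± 0.94 points, adjusted p = 0.0665) came closest. Both had 0% in the libraries labelled excitatory and so entered the test through the libraries labelled inhibitory alone. Regions shared by all 4 libraries made up 25 of the 91 H3K27me3 regions in the members' windows, or 27.5%, against 11.1% of all regions, and no test was made of this. With peaks restricted to a -log10 p of at least 3, a single H3K27me3 region was left in the members' windows.

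**Figure D2:**
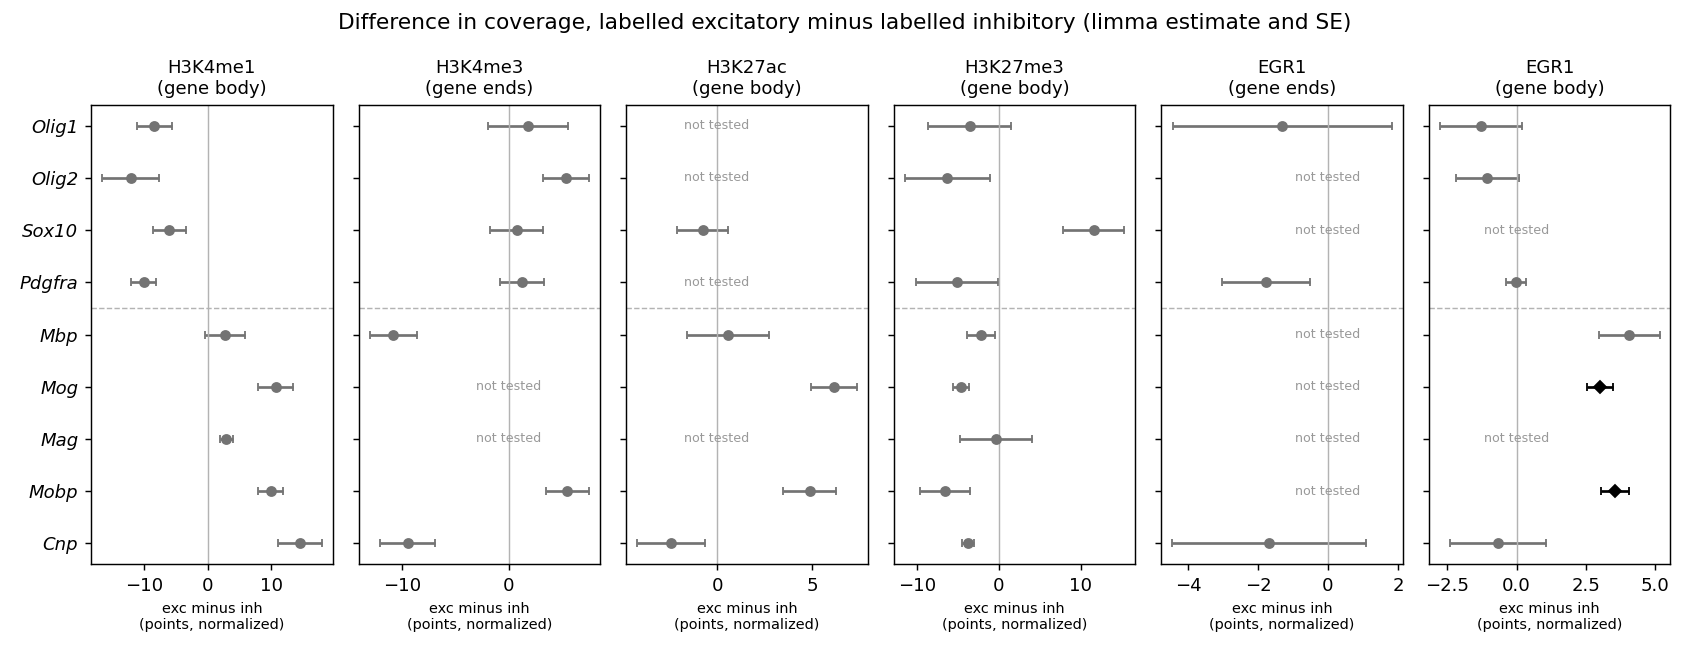
Difference in coverage (horizontal axes, percentage points on the normalized scale, libraries labelled excitatory minus those labelled inhibitory) for each member (vertical axis) by antibody and window. Points are limma estimates and bars 1 SE; black diamonds passed an adjusted p of 0.05 and grey circles did not. For H3K4me1 the 5 myelin genes lie to the right of 0 and the 4 regulator and receptor genes to the left, and the diamonds are Mog at 3.03 and Mobp at 3.56 for EGR1 over the gene body.

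H3K4me1 coverage as deposited differed in direction between members, without any passing the test. All 5 myelin genes had more coverage in both libraries labelled excitatory, and 3 of the 4 other members had more in both labelled inhibitory. Mobp had 15.9% and 15.5% against 3.80% and 2.11%. Mog had 17.7% and 13.9% against 5.12% and 0.07%. Mag had 4.80% and 4.23% against 0% and 0%. In these 3 genes the groups are far apart, and the libraries labelled inhibitory were at or close to 0 for Mag and, in 1 library, for Mog. Mag entered the test through the libraries labelled excitatory alone. Cnp had 31.6% and 35.6% against 22.1% and 13.9%, and Mbp 26.4% and 27.8% against 23.0% and 25.7%, a narrow gap. With bases in or near its neighbours Ttc25 and Dnajc7 left out, Cnp had 32.6% and 33.3% against 32.2% and 11.1%, so that the first library labelled inhibitory lay close to the others. Pdgfra went the other way, with 4.73% and 7.46% against 14.1% and 12.0%, as did Olig2, with 19.8% and 20.9% against 25.2% and 38.8%. Olig1 had 12.0% and 14.8% against 22.2% and 15.01%, a gap that is small beside the spread. Sox10 had 8.51% and 0% against 9.76% and 6.11%, which overlap.

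None of the 9 passed the adjusted test, while 4.06% of the 18017 genes tested did (456 higher in the libraries labelled excitatory and 276 lower). The smallest adjusted p-values were 0.0528 for Pdgfra (-10.1 ± 1.97 points), 0.0529 for Mobp (9.91 ± 1.94 points), 0.0720 for Cnp (14.5 ± 3.43 points) and 0.0856 for Mog (10.7 ± 2.77 points). An unadjusted p under 0.05 was reached by 7 of the 9 members and by 25.9% of all genes. More coverage in both libraries labelled excitatory was found in 5 of 5 myelin genes and 0 of 4 regulators, against 39.3% of all genes, and more in both labelled inhibitory in 0 of 5 and 3 of 4, against 15.3%. The median difference was 9.91 points over the myelin genes, -9.26 over the regulators and -0.34 over all genes. Without quantile normalization all 9 differences kept their sign and Mobp (adjusted p = 0.0319) and Mog (adjusted p = 0.0409) passed, but 4 differences turned under another setting: Cnp over the gene ends alone (-5.23 points), Olig1 with equal numbers of strongest peaks (2.04 points), and Mbp (-0.85 points) and Pdgfra (2.56 points) with a -log10 p of at least 3.

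H3K27ac was sparse on the members. Mog had 6.52% and 8.39% in the libraries labelled excitatory and 0.44% and 0.83% in those labelled inhibitory, and Mobp had 4.12% and 8.39% against 1.52% and 0%. Both genes were higher in both libraries labelled excitatory, by 6.16 ± 1.20 points for Mog (adjusted p = 0.144) and 4.88 ± 1.40 points for Mobp (adjusted p = 0.184). Cnp had 7.66% and 9.56% against 10.9% and 14.6%, and Mbp had 10.002% and 8.16% against 9.37% and 9.97%. The Cnp groups do not overlap and the Mbp groups do. Sox10 had 2.96% and 5.01% against 1.49% and 5.58%, which overlap. Olig1, Olig2, Mag and Pdgfra had peaks only in the second library labelled excitatory, at 2.22% to 5.65%, and were not tested. No member passed, and 0.0% of the 16654 genes tested did, with 3039 of them, or 18.2%, at an unadjusted p under 0.05, as 2 of the 5 members tested were. Mog passed when either library labelled excitatory was left out (adjusted p of 0.0406 without replicate 1 and 0.0405 without replicate 2, where 925 and 899 genes were called), and had an adjusted p of 0.775 and 0.724 without inhibitory replicate 1 and 2, where 0 genes were called.

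H3K4me3 at the gene ends gave a different order of the myelin genes. Mbp had 23.1% and 28.5% in the libraries labelled excitatory and 35.9% and 37.4% in those labelled inhibitory. Cnp had 11.1% and 18.7% against 25.0% and 23.1%. Both were higher in both libraries labelled inhibitory. For Mbp the gap lay at the higher end of the gene, with 0% and 0% against 16.5% and 23.6%. The lower end, with 46.2% and 57.0% against 55.2% and 51.1%, overlapped, and over the gene body the difference was -0.25 points (adjusted p = 0.957). The Mbp ends are those of the whole RefSeq gene of 110547 bases, and any start farther inside lies outside this window. Mobp had 4.62% and 10.2% against 2.30% and 0%, and Olig2 20.8% and 25.4% against 17.4% and 17.0%, higher in both labelled excitatory. The Olig2 gap lay at the far end, with 19.5% and 23.65% against 1.35% and 0%, while the start had 17.55% and 32.98% against 30.95% and 30.3%, which overlap. Mog and Mag had a peak in only the second library labelled excitatory, at 7.64% and 6.86%, and were not tested. None of the 7 members tested passed, against 3.02% of 15685 genes; the differences were -10.9 ± 2.25 points for Mbp (adjusted p = 0.0591), -9.52 ± 2.58 for Cnp (adjusted p = 0.114), 5.52 ± 2.04 for Mobp (adjusted p = 0.224) and 5.40 ± 2.18 for Olig2 (adjusted p = 0.269), and 4 of the 7 had an unadjusted p under 0.05, against 17.6% of genes. Groups that do not overlap were found in 2 of 7 members with the excitatory label above, against 25.6% of genes, and in 2 with the inhibitory label above, against 20.3%. The Cnp value depends on its neighbours. Ttc25 and Dnajc7 reach into its window, and with bases in or near other genes left out Cnp had 37.9% and 48.0% against 35.5% and 46.8%, which overlap, and a difference of 2.37 points. The Olig2 difference turned to -11.5 points with a -log10 p of at least 3 and to -3.98 with equal numbers of strongest peaks.

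Merged regions that all 4 libraries held spanned the Cnp start for H3K4me3 (100574585 to 100575740), H3K4me1 (100574719 to 100577828) and H3K27ac (100574690 to 100575795). A library need not reach the start itself to hold such a region. The bases of the promoter table are shown to set them beside those of Olig2, whose start had no H3K27ac (RefSeq, GRCm38.p6, plus strand, chr11:100574689-100574938, CG pairs in capitals):
Cnp: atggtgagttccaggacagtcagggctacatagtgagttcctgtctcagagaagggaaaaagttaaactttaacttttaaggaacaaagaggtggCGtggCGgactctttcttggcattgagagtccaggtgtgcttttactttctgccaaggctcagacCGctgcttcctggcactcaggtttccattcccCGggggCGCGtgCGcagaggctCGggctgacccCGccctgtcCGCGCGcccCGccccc
It holds 13 CG pairs, more than 68.5% of promoters. Of its 250 bases, H3K4me3 peaks covered 106 and 250 in the libraries labelled excitatory and 183 and 250 in those labelled inhibitory. H3K27ac peaks covered 0 and 249 against 202 and 0, and H3K4me1 peaks 220 and 0 against 0 and 0. H3K27me3 peaks covered 0 and 0 against 173 and 29, and EGR1 peaks 0 and 20 against 0 and 43.

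EGR1 was found inside Mog and Mobp in the libraries labelled excitatory. At the gene ends, the window set for EGR1, both genes had 0% in every library. Cnp had 5.44% and 6.04% in the libraries labelled excitatory and 0% and 9.70% in those labelled inhibitory, Pdgfra 2.80% and 0% against 0% and 3.01%, and Mbp 10.2% in a single library, the first labelled excitatory. These values overlap, as those of Olig1 do. Olig1, Cnp and Pdgfra could be tested there and did not pass, with adjusted p-values of 0.563 to 0.880, where 0.0% of 14310 genes passed and 14.7% (2105) had an unadjusted p under 0.05, which no member had. Groups that do not overlap were found in none of the 3, against 47.4% of genes with the excitatory label above and 6.04% with the inhibitory. Over the gene body plus 5 kb, the alternative window for EGR1, Mobp had 6.15% and 5.75% against 0.556% and 1.28%, and Mog had 5.005% and 4.48% against 0.525% and 0.159%. Both genes are well separated by label. The differences were 3.56 ± 0.50 points for Mobp (adjusted p = 0.0350) and 3.03 ± 0.46 points for Mog (adjusted p = 0.0392), the 2 members of 7 tested that passed, against 2.63% of 16408 genes (344 higher and 88 lower in the libraries labelled excitatory). Mbp, with 9.57% and 6.54% against 1.57% and 2.82%, had a difference of 4.08 ± 1.09 points and did not pass (adjusted p = 0.114). Mag had no EGR1 peak in its window in any library. Coverage as deposited was higher in both libraries labelled excitatory for 4 of the 7 and for 63.3% of all genes, and in both labelled inhibitory for 0 of the 7 and for 3.71%.

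The calls for Mobp and Mog rest on few libraries. Over the alternatives their differences stayed between 3.23 and 5.04 points and between 2.66 and 4.61 points, with adjusted p-values from 0.0162 to 0.192 for Mobp and from 0.0151 to 0.192 for Mog. Neither passed without the first library labelled inhibitory (adjusted p of 0.192 for each), without the second (0.165 for each), where no gene of the table passed in either case, or without the first labelled excitatory (0.0519 for Mobp and 0.0531 for Mog), and both passed without the second labelled excitatory.

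The peaks behind these values sit away from the gene starts. In Mobp a strong EGR1 region from 120174225 to 120175270, in the last part of the gene, had the authors' fold enrichment of 8.43 and 6.69 in the libraries labelled excitatory and no peak in the others. A weaker one from 120178681 to 120179342 had 4.38 and 3.33. A region past the gene's end, from 120184197 to 120184952, was in all 4 libraries, with 7.19 and 5.08 in those labelled excitatory and 3.37 and 5.41 in those labelled inhibitory. The first of them lay on an H3K4me1 region found only under the excitatory label (120173545 to 120175353), and the second on H3K4me1 (120178502 to 120180222) and H3K4me3 (120178816 to 120179322) regions found only under the same label, each antibody having its own libraries. The gene's start lay in an H3K27me3 region found in all 4 libraries (120147627 to 120151255). Near the same start were an H3K4me1 region (120149525 to 120151519) and an H3K27ac region (120151258 to 120151827) found only under the excitatory label. H3K4me3 within 2 kb of the start was 9.25% and 9.15% against 0% and 0%, and H3K27ac 5.1% and 14.6% against 0% and 0%. The bases before the start are shown for their composition (RefSeq, GRCm38.p6, plus strand, chr9:120149492-120149741), with each CTTTGT, the core that SOX proteins bind, in capitals:
Mobp: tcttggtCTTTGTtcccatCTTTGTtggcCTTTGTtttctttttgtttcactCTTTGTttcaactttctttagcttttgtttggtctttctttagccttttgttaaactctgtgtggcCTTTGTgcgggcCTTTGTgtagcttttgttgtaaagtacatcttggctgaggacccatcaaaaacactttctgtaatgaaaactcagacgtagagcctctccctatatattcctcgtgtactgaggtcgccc
H3K27me3 peaks covered all 250 bases in 3 libraries and none in the first labelled excitatory. The motif CTTTGT, searched on both strands, occurs 6 times, and 1 of 32851 promoters has that many. Any match is found in 16.5% of promoters. The motif was chosen after the sequence had been seen, and a match is not evidence of binding.

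In Mog, 2 EGR1 regions lay inside the gene, from 37018318 to 37018814 and from 37019144 to 37019724, with the authors' fold enrichment of 4.12 and 5.18 for the first and 4.77 and 5.21 for the second in the libraries labelled excitatory and no peak in the others. Both lay on an H3K4me1 region found only under the excitatory label (37017054 to 37019423), and the first on an H3K27ac region found only under that label (37018259 to 37018778). An EGR1 region found in all 4 libraries, from 37028280 to 37029255, was at the far upstream edge of the window. The neighbouring gene Zfp57 reaches into the window at the other end. The bases before the Mog start, on the minus strand, are shown as the contrast to Olig2 (RefSeq, GRCm38.p6, chr17:37023399-37023648, CG pairs in capitals):
Mog: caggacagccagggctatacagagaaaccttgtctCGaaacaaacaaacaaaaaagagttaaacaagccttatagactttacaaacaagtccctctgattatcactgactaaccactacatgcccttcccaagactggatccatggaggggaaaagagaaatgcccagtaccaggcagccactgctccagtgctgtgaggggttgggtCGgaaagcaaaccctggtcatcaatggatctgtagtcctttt
They hold 2 CG pairs, more than 18.8% of promoters, and no H3K4me1, H3K4me3, H3K27ac or EGR1 peak reached them in any library. An H3K27me3 peak did in the first library labelled inhibitory, over 249 bases. The EGR1 core GCGTGGGCG, searched on both strands and present in 0.536% of promoters, was in none of the promoters of the 6 members in the table (Olig2, Mog, Mag, Mobp, Cnp and Pdgfra).

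**Figure D3:**
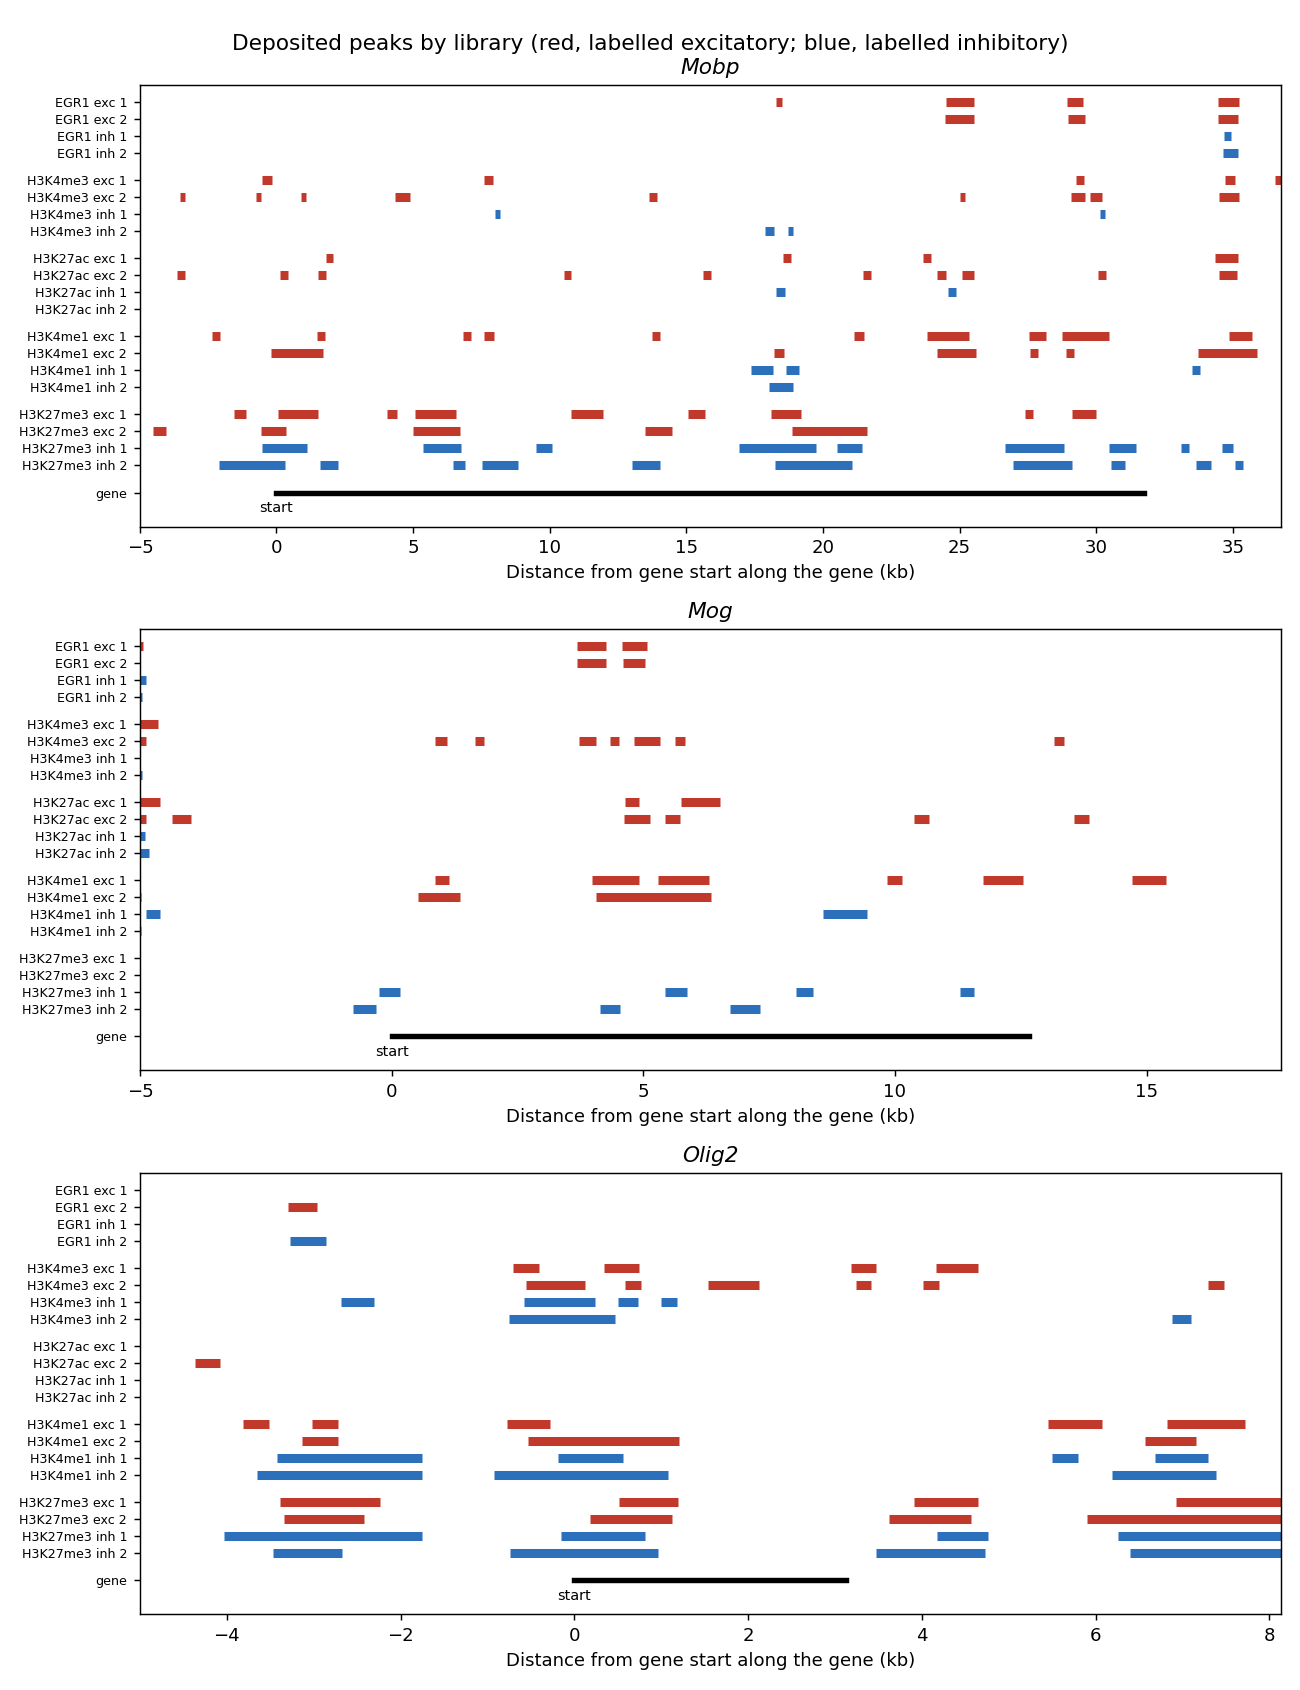
Deposited peaks over Mobp, Mog and Olig2 by library (rows), drawn along the gene from its start (horizontal axis, kb), with the libraries labelled excitatory in red, those labelled inhibitory in blue and the gene body in black. In Mobp the EGR1 peaks with fold enrichments of 8.43 and 6.69 appear in the red rows alone, and in Olig2 the 4 H3K27me3 regions appear in all 4 libraries.

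Over the members together, 11 of 48 EGR1 regions were found in both libraries labelled excitatory and neither of the others, or 22.9% against 20.9% of all EGR1 regions, so their share was close to that of the series. Mbp held 7 of the 11, Mog 2 and Mobp 2. No EGR1 region of the members was found only in the libraries labelled inhibitory, against 2.40% of all regions. Of the 11, 6 overlapped an H3K4me1 region found only in the libraries labelled excitatory, or 54.5% against 34.9% of the 30308 such EGR1 regions in the series, and 1 overlapped an H3K4me1 region found only under the inhibitory label, or 9.09% against 0.485%. For H3K27ac regions found only under the excitatory label the count was 1, or 9.09% against 15.4%. None overlapped an H3K27me3 region that was in all 4 libraries, against 13.9%, or found only under the inhibitory label, against 8.26%, or the excitatory, against 0.901%. The 7 regions of Mbp share 1 gene, and no test was made of these shares.

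The wider oligodendrocyte list, 39 other genes of the lineage, had members on both sides. For H3K4me1, 24 were higher and 15 lower in the libraries labelled excitatory, and 4 and 2 of them passed, where 47.3% of all genes were higher and 4.06% passed. Omg, a glycoprotein of myelin and neurons, had 23.1% and 30.6% against 5.02% and 0% (difference 23.5 ± 2.75 points, adjusted p = 0.0401). Gal3st1, which makes the myelin lipid sulfatide, had 20.04% and 18.3% against 0% and 0% (17.7 ± 2.42 points, adjusted p = 0.0401). It entered this test through the libraries labelled excitatory alone. Omg and Gal3st1 were higher for H3K4me3 as well, by 26.0 ± 3.85 points (adjusted p = 0.0255) and 15.4 ± 2.73 points (adjusted p = 0.0402). They were the 2 calls among 30 genes tested, where 3.02% of all genes were called. Olig3, a relative of Olig2 that acts in neural progenitors, was lower for H3K4me1, with 2.44% and 7.19% against 26.2% and 29.9% (-24.3 ± 2.69 points, adjusted p = 0.0401), and so did Zfp488, a transcriptional regulator of the lineage, with 4.07% and 11.6% against 23.3% and 19.2% (-16.1 ± 3.01 points, adjusted p = 0.0496). The median difference was 1.49 points over the list and -0.34 over all genes. With bases in or near other genes left out, no gene was called for H3K4me1. The same held with the replicate block and with equal numbers of strongest peaks, and for H3K4me3 without quantile normalization. These H3K4me1 calls were lost, with all others of that table, when the first library labelled excitatory or either library labelled inhibitory was left out, and the H3K4me3 calls when the second labelled excitatory or either labelled inhibitory was.

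The other antibodies gave fewer calls on the wider list. H3K27ac was higher in the libraries labelled excitatory for 22 of 34 genes tested, with none passing and 10 at an unadjusted p under 0.05, where 48.9% of all genes were higher and 18.2% had such a p. Tmem125 had 4.96% and 6.24% against 0% and 0%, and Apod 5.50% and 8.57% against 1.02% and 0% (adjusted p = 0.144 for each). On the normalized scale H3K27me3 was higher for 27 of 37, against 50.7% of all genes, with none passing and 13 at an unadjusted p under 0.05, against 28.9% of all genes. As deposited, 12 genes lay above in both libraries labelled excitatory and 15 in both labelled inhibitory. The extremes had opposite signs, Gjb1, a gap junction protein, at 0% and 1.53% against 35.4% and 29.6% and Ermn, a cytoskeletal protein of oligodendrocytes, at 27.6% and 25.6% against 12.4% and 5.06% (adjusted p = 0.0555 for each). EGR1 at gene ends gave no call among 27 genes, with 5 at an unadjusted p under 0.05, against 14.7% of all genes, and Lpar1, a lysophosphatidic acid receptor, stood out at 14.2% and 19.3% against 0% and 4.97% (adjusted p = 0.129), beside Tmem125 at 8.50% and 7.67% against 0% and 0% (adjusted p = 0.157). Over the gene body, EGR1 was higher in the libraries labelled excitatory on Cspg4, a proteoglycan of oligodendrocyte precursors (5.31 ± 0.72 points, adjusted p = 0.0333), Tmem125 (3.45 ± 0.38, adjusted p = 0.0266) and Lpar1 (1.97 ± 0.30, adjusted p = 0.0392), and lower on Fa2h, which hydroxylates myelin lipids (-3.38 ± 0.50, adjusted p = 0.0377), 4 calls among 33 genes, against 2.63% of all genes.

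**Figure D4:**
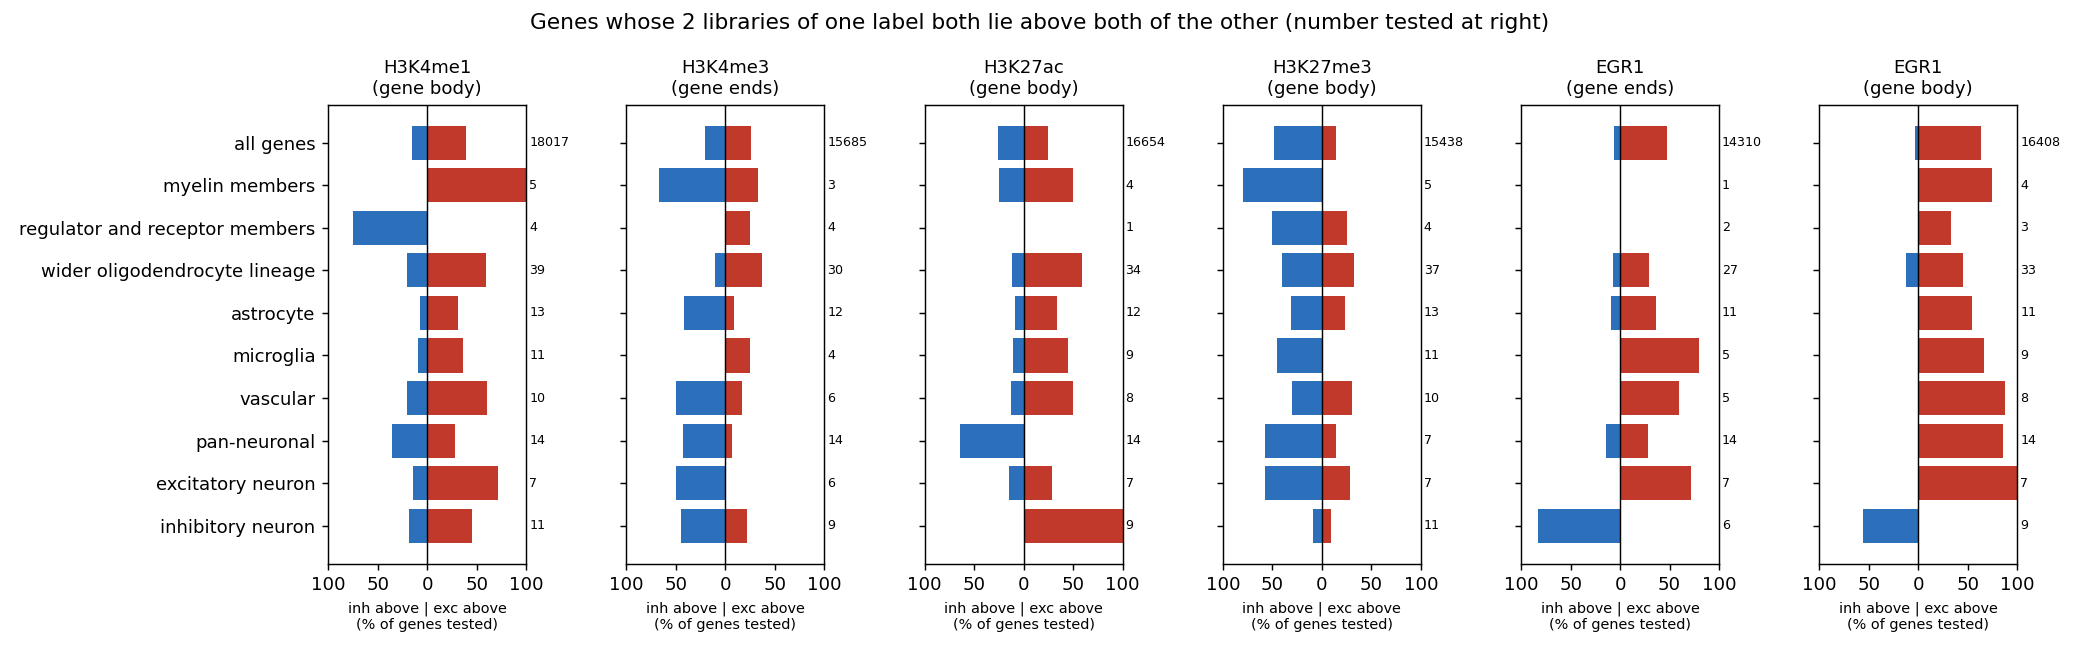
Percent of the genes tested (horizontal axes) for which both libraries labelled excitatory lay above both labelled inhibitory (red, to the right) or the reverse (blue, to the left), by gene list (vertical axis) and antibody; the number tested is at the right of each panel. For H3K4me1 the 5 myelin members reach 100% on the right against 39.3% of all genes. Only genes with coverage in 2 or more libraries enter, so a list can pass through the label where it is high.

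Markers of other cell types are given beside these values. For H3K4me1, 5 of 13 astrocyte markers were higher in the libraries labelled excitatory and none passed. The same held for 5 of 11 microglia, 5 of 10 vascular and 6 of 11 inhibitory neuron markers, with 1 passing in each list. Of all genes, 47.3% were higher and 4.06% passed, so the shares higher were near that of all genes. The median H3K4me1 coverage of all genes was 13.1% and 14.7% in the libraries labelled excitatory and 11.6% and 9.17% in those labelled inhibitory. The median coverage of the wider oligodendrocyte list was 10.4% and 12.1% in the libraries labelled excitatory and 8.11% and 5.26% in those labelled inhibitory, that of the microglia list 10.1% and 9.73% against 6.25% and 2.34%, and that of the pan-neuronal list 21.9% and 29.0% against 23.9% and 24.7%. For H3K27ac the oligodendrocyte list had medians of 2.99% and 6.65% against 1.19% and 1.40%, and the microglia list 3.46% and 4.31% against 0.967% and 0.963%. The median H3K27ac coverage of both lists was thus lower in the libraries labelled inhibitory, but this was not particular to glia. The inhibitory neuron list had 4.91% and 6.26% against 0% and 0%, and the vascular list 1.56% and 3.96% against 0.654% and 0.385%. The astrocyte list, with 3.49% and 6.99% against 2.62% and 3.67%, overlapped, as did the excitatory neuron list. The H3K27ac medians of all genes, 3.97% and 6.84% against 4.33% and 5.04%, overlapped as well. The pan-neuronal list went the other way, with 6.67% and 7.64% against 8.73% and 9.21%. For H3K27me3 the members had medians of 24.6% and 22.0% against 25.8% and 23.3%. The inhibitory neuron list had 26.2% and 26.0% against 28.2% and 27.7%, and the excitatory neuron list 23.2% and 18.4% against 21.9% and 21.1%. The astrocyte list had 17.8% and 19.7% against 21.0% and 24.0%, and the pan-neuronal list 0% and 0% against 0.282% and 0.165%. High H3K27me3 coverage was thus not particular to the members. The part of glial nuclei in the members' values was not tested.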

How the data were processed

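CUT&RUN libraries were made from sorted nuclei with a commercial kit, per the labels' protocols, and reads were processed with MACS2 2.2.5, SAMtools 1.12, Picard 2.25.0, Bowtie2 2.3.5, Trim Galore 0.5.0 and cutadapt 1.18 on the mm10 build, per the submitters' processing notes. Their parameters, and whether a control was used, are not given in the sources. Since the authors deposited a peak list for every library, replicates were not pooled. Each deposited peak has a fold enrichment (a ratio), a -log10 p-value, a -log10 q-value and an integer score, and only the fold, p and q were used, to describe or filter peaks. The least significant deposited peaks had a p of 0.0988 to 0.0999 for H3K4me1 and H3K27me3 and 0.0483 to 0.0498 for H3K4me3 and H3K27ac. For EGR1 it was 0.00481 to 0.00491, so the histone lists are lenient. Depth is unknown, and whether the length of a list follows depth was not tested.

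The analysis kept chromosomes 1 to 19 and X. Positions are 1-based on mm10, and gene positions came from RefSeq GRCm38.p6, which here gives no strand, so both gene ends were used. Coverage was quantile-normalized over the 4 libraries of an antibody and fitted, where 2 or more libraries had any covered base, with limma 3.58.1 in R 4.3.3 (eBayes with a trend); all tests are two-sided, and the fit was tested on simulated data. A gene with no coverage under 1 label entered the fit through the other label alone. Regions are overlapping peaks of the 4 libraries merged, and a library holds a region if 1 base of its peaks lies in it. Samples were grouped by their titles. The members and gene lists were chosen with earlier results of these data known. The text names the 9 members, 5 neuronal genes as a check of the labels, and per antibody up to 4 genes of the wider list with the largest difference among those that passed, or the 2 with the smallest p where none did. Alternatives changed the window, normalization, filter, peak threshold, peak number, replicate block and libraries; leaving out bases in or within 2 kb of other genes, and all alternatives of the EGR1 gene body fit, itself one of the listed alternative windows, were added after seeing the data.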

Additional observations from a re-analysis of the deposited data

How the results depend on the processing

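Of the 40 member differences, 19 kept their sign under every alternative run, and 40 of 409 alternative values reversed; beyond what each sentence states, the cause was not tested. With the other window (gene ends for gene bodies and the reverse), 219 genes were called for H3K4me1, 111 for H3K4me3 and 432 for EGR1, with 2 members for EGR1, and the differences were -5.23 points for Cnp H3K4me1, -11.8 for Mbp H3K27ac and 10.5 for Mag H3K27me3. Without quantile normalization, 1211 genes and 2 members were called for H3K4me1, 0 genes for H3K4me3 and 3027 for EGR1 over the gene body. The same setting gave 0.45 for Sox10 and -0.59 for Mbp H3K27ac, 1.34 for Olig1 and 0.89 for Cnp EGR1 at gene ends, and 0.68 for Olig1, 1.37 for Cnp and 1.06 for Pdgfra EGR1 over the gene body. Without the coverage filter, more genes were tested and 20 were called for H3K4me1, 0 for H3K4me3, 16 for H3K27ac, 53 for EGR1 at gene ends and 152 over the gene body, with 0 members there. With a -log10 p of at least 3, 0 genes were called for H3K4me1 and 1 member, Cnp, for H3K4me3. The differences there were -0.85 for Mbp and 2.56 for Pdgfra H3K4me1 and -11.5 for Olig2 H3K4me3. The members' regions found only under the excitatory label fell to 0 for H3K4me1, 2 for H3K4me3, 1 for H3K27ac and 0 for H3K27me3, and those only under the inhibitory label to 1 for H3K4me1 and 0 for H3K27me3, since fewer peaks were left. With equal numbers of strongest peaks, 0 genes were called for H3K4me1, and 1 member each for H3K4me3 (Cnp) and EGR1 over the gene body (Mog), with differences of 2.04 for Olig1 H3K4me1, -3.98 for Olig2 H3K4me3 and 1.72 for Mag H3K27me3. With bases near other genes left out, 0 genes were called for H3K4me1, 291 for H3K4me3 and 2 for EGR1 at gene ends. Cnp then had 2.37 for H3K4me3, 0.94 for H3K27ac, 11.9 for EGR1 at gene ends and 6.56 over the gene body, and Mag 0.066 for H3K27me3. Requiring at least 50% of a region gave 12 H3K4me1 and 8 H3K27ac regions of the members under the inhibitory label alone.

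The labels do not say whether libraries of equal replicate number were paired. The deviations of same-numbered libraries correlated at -0.02 to 0.06 across genes. A correlation across genes cannot show whether such libraries shared animals or a sort. With the replicate block, 0 genes were called for H3K4me1, 1247 for H3K4me3 (2 members, Mbp and Cnp), 1329 for H3K27ac (1 member, Mog) and 269 for EGR1 over the gene body (0 members).

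Leaving out 1 library at a time, the number of genes called ranged from 0 to 507 for H3K4me1, 0 to 733 for H3K4me3, 0 to 925 for H3K27ac and 0 to 445 for EGR1 over the gene body, and the members called from 0 to 1 for H3K27ac and 0 to 3 for EGR1 over the gene body. A lone library of a label was assumed to vary like the other pair. Differences that changed sign ranged from -2.68 to 6.29 for Olig1, -1.87 to 3.53 for Sox10 and -0.28 to 2.38 for Pdgfra H3K4me3, from -2.11 to 0.64 for Sox10 and -1.87 to 3.14 for Mbp H3K27ac, and from -9.68 to 2.66 for Olig1, -4.78 to 4.10 for Mag and -10.6 to 0.47 for Pdgfra H3K27me3. For EGR1 they ranged from -5.96 to 3.23 for Olig1 and -5.63 to 2.12 for Cnp at gene ends, and from -3.35 to 0.87 for Olig1, -2.90 to 0.47 for Olig2, -3.10 to 1.65 for Cnp and -0.29 to 0.27 for Pdgfra over the gene body.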
